A study of Homo sapiens with 6 samples.

Results

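SPI1, SPIB and SPIC form the SPI branch of the ETS transcription factors, and their transcripts were examined in REH cells with and without knockdown of the ETV6/RUNX1 fusion. Members were all catalogue probes of the array whose RefSeq accession belongs to 1 of these 3 genes. There were 3 such probes, 1 for each gene, among 34134 catalogue probes and 57176 probes in all. REH, an established human line from a childhood B-cell precursor leukemia, carries the fusion, and according to the study it has lost the other ETV6 allele, which holds for both groups. The control group was 3 samples given a non-targeting short hairpin RNA (shRNA), and the knockdown group was 3 samples given an shRNA against the ETV6/RUNX1 fusion, which binds the ETV6 portion of the transcript. According to the study's methods, each group had a single hairpin, and that of the control was itself designed against ETV6 but did not hit the fusion. The vectors carried GFP, and transduced cells were sorted on it. All samples come from 1 cell line, and replicates are numbered 1 to 3 in each group, n = 3 throughout. The study calls the replicates biological, and the labels do not say how they were separated (culture, transduction or day), so p-values measure the spread between these samples. The family was chosen on the measured difference between these groups, since SPIB was known to be among the most increased transcripts on the same arrays. Knockdown against control values of the 3 members are therefore given as a description, without a test.

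SPI1 encodes PU.1, the factor that drives myeloid and early B-cell development, and its dose is known to bias progenitors between both fates. SPIB encodes Spi-B, a close relative that is known from B cells and plasmacytoid dendritic cells and shares many B-cell targets with PU.1. SPIC encodes Spi-C, which is known from red pulp macrophages, where it acts in iron recycling. These proteins bind purine-rich elements around the letters GGAA through the ETS domain, often beside the interferon regulatory factors IRF4 or IRF8. Full-length RUNX1 is a known regulator of SPI1, and the fusion protein retains the DNA-binding domain of RUNX1.

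Arrays were comparable in quality. The scanner software flagged 45.8% to 50.9% of probes per array as well above background, and correlations between arrays ran from 0.986 to 0.996 across probes. A probe was retained for testing when it exceeded a threshold set from the negative control spots, which left 27445 probes. With limma (adjusted p under 0.05), 471 of these were called between knockdown and control, which is 1.72%, with 0.448% called higher and 1.27% called lower. Values are on a normalized log2 scale, and directions are relative to the bulk of probes: over the retained probes the log2 fold change had a median of -0.002, which became 0.34 when the arrays were scaled on spike-in probes. The detectable ETV6 probe had a log2 fold change of -0.70 (limma adjusted p = 0.0521), with all knockdown arrays below all control arrays. Of all retained probes 19.0% had groups that did not overlap, in either direction. The study reported that the fusion was silenced, with western blot and RT-qPCR of protein and transcript. As RNA came from bulk samples, fewer cells of a type and less RNA per cell cannot be told apart. Of 12 B-cell precursor markers 11 were retained, and VPREB1, which encodes a surrogate light chain component, was not. Of the 16 retained probes of these markers 13 had a positive log2 fold change (81.2%, against 49.5% of all retained probes, with a median of 0.18) and none was called. With the replicate block, which called 3.73% of all retained probes, 4 were called higher, those of CD22 and CD79B and both of IGLL1, the other surrogate light chain component (0.53 and 0.68). Of 14 T-cell, monocyte and erythroid markers 9 were retained, and none of their 10 retained probes was called. CD3G, CD33, FCGR3A and HBB were neither retained nor well above background on any array, LYZ was matched to no probe, and CD3E was retained although no array had it well above background.

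To show what lies upstream of SPIB, the member with the largest change, and of SPIC, the member without detectable signal, the 250 bases before each gene start are printed, taken from RefSeq on GRCh38.p14. The array was designed on an earlier build, hg19. The SPIB window is chr19:50418688-50418937 and the SPIC window chr12:101475086-101475335, both on the plus strand. The promoter of SPI1 was not analysed here. Capitals mark the ETS core GGAA, the RUNX letters TGTGGT and TGCGGT and the TATA letters TATAAA, searched on both strands.
SPIB promoter: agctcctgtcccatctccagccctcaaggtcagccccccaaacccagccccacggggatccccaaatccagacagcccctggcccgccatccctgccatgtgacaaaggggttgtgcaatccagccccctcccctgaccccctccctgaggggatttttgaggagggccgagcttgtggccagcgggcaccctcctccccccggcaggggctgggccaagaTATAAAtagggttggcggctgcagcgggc
SPIC promoter: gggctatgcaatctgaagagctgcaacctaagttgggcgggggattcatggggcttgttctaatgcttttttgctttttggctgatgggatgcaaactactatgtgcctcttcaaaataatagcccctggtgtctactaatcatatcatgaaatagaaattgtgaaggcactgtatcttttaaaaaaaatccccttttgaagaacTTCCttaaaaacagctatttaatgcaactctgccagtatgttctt
The SPIB window held TATAAA once, starting 29 bases before the gene start, and 3763 of 35116 promoters of this length hold it on either strand. It held no GGAA on either strand, which 92.7% of promoters have, and neither of the RUNX letters, which 11.0% (TGTGGT) and 5.84% (TGCGGT) have. The SPIC window held GGAA once, on the minus strand and starting 45 bases before the gene start, and no match to the other 3. Neither window held GAGGAA, an extended form of GGAA that occurs in 23.6% of promoters and overlaps it, nor the ETS-IRF composite element, which also contains GGAA and occurs in 2.41%. SPIB was the more GC-rich of both, with 66.4% G or C against 39.2% for SPIC, and the median over all promoters was 58%.

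SPIB was detected on every array. Its probe, A_23_P39067 (NM_003121), measured 9.60, 9.52 and 9.75 on control replicates 1 to 3 and 10.97, 11.04 and 10.90 on knockdown replicates 1 to 3. Every knockdown array lay above every control array, and the gap between the lowest knockdown and the highest control value was 1.15, larger than the range within control (0.24) or within knockdown (0.14). Group means were 9.62 ± 0.12 (SD, n = 3) and 10.97 ± 0.07, a log2 fold change of 1.35 or 2.55-fold. On the scanner's own scale, before any normalization, median spot intensities were 754, 745 and 934 in control and 2362.5, 1984 and 1766 in knockdown, over local backgrounds from 29 to 39.5. Thus the separation was already present in the unnormalized intensities. Between replicates of the same number, which deviated together on these arrays, SPIB differed by 1.37, 1.53 and 1.15, or 2.59-, 2.89- and 2.22-fold. Only 11 of the 27445 retained probes had a larger increase, a rank that follows from how the family was chosen.

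SPI1 gave the brightest probe signal of the members, although levels of different probes are not comparable as amounts of RNA. Probe A_33_P3489646 (NM_001080547) measured 11.01, 11.10 and 11.14 on control replicates 1 to 3 and 11.92, 11.55 and 11.48 on knockdown replicates 1 to 3. All 3 knockdown arrays again lay above all 3 controls, by a gap of 0.34. Means were 11.08 ± 0.07 and 11.65 ± 0.24 (SD, n = 3), a log2 fold change of 0.57 or 1.48-fold. In contrast to SPIB, the spread of SPI1 within knockdown (a range of 0.45) exceeded the gap between groups. Knockdown replicate 1 was the high array: it lay 0.41 above the mean of knockdown replicates 2 and 3, whereas control replicate 1 lay 0.11 below the mean of the other controls. For SPIB these differences were 0.001 and -0.03. Unnormalized intensities of SPI1 were 1978.5, 2210.5 and 2412 in control and 4554, 2805 and 2624 in knockdown. By replicate number SPI1 differed by 0.91, 0.44 and 0.34, and without knockdown replicate 1 its log2 fold change was 0.43. In each of the 3 pairs the difference of SPIB was larger than that of SPI1, by 0.46, 1.08 and 0.81. Among all retained probes, groups did not overlap for 19.0%, and for 9.00% in the higher direction, so the separation seen for both retained members is given as a description only.

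SPIC was not detected. Probe A_32_P148275 (NM_152323) measured 4.57, 5.04 and 5.05 in control and 4.995, 5.15 and 4.84 in knockdown, from 0.59 to 1.09 below the threshold of the same array. Its intensities, 38, 48 and 52 in control and 50, 53 and 45 in knockdown, were close to the medians of the negative control spots (42.25 to 48). The scanner flag was negative on all 6 arrays and the filter was not passed, so no fold is given. A change of SPIC below the background of the array could not have been seen.

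**Figure D1:**
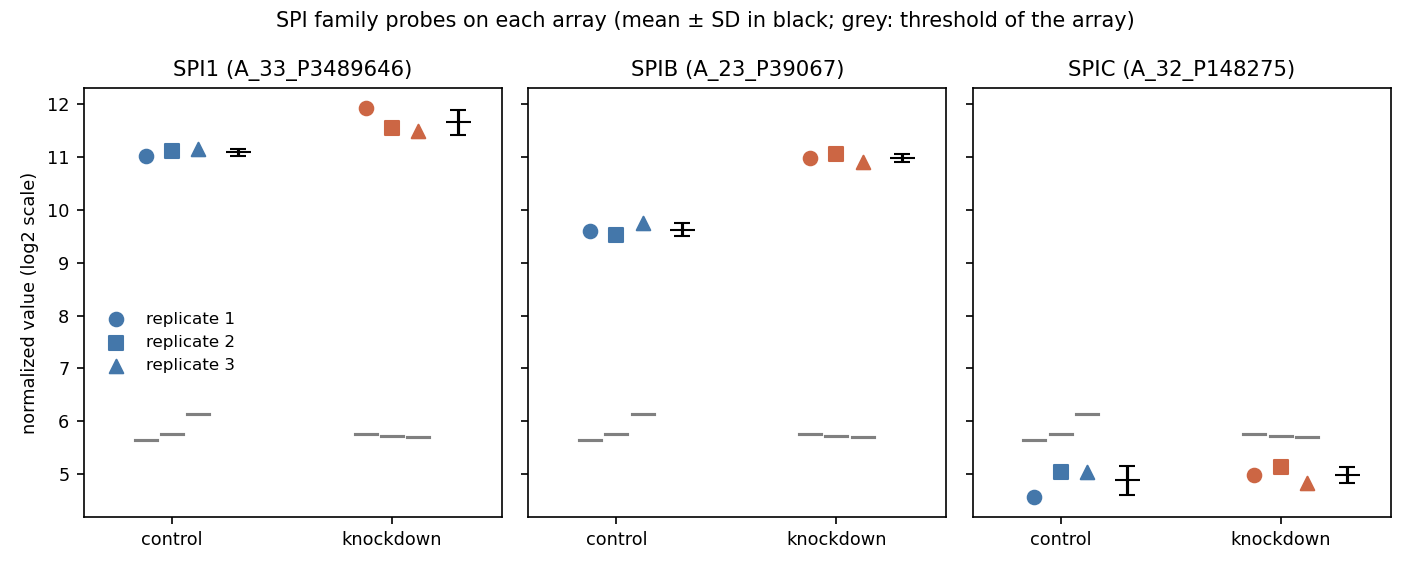
Normalized log2 values (vertical axis) of the SPI1, SPIB and SPIC probes on the 3 control and 3 knockdown arrays, with markers for replicates 1 to 3, group mean ± SD in black and the threshold of each array in grey. SPIB is separated by a gap of 1.15 and SPI1 by 0.34, whereas SPIC lies below the threshold on all 6 arrays.

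The authors' deposited log2 values gave closely similar numbers. In that table SPIB was 9.57, 9.49 and 9.72 in control and 10.97, 11.04 and 10.90 in knockdown, a difference of 1.38. SPI1 was 11.00, 11.09 and 11.12 in control and 11.92, 11.54 and 11.48 in knockdown, a difference of 0.58. Over all 17 alternatives in processing, the log2 fold change ran from 1.22 to 1.70 for SPIB and from 0.43 to 0.91 for SPI1, and SPIB exceeded SPI1 under each, although 5 of these settings cannot move the fold of a gene with a single probe. Both highest values came from spike-in scaling, which raised the median of all probes as well. Within the second row of the slide, which held control replicate 3 and all knockdown arrays, the difference was 1.22 for SPIB and 0.51 for SPI1.

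**Figure D2:**
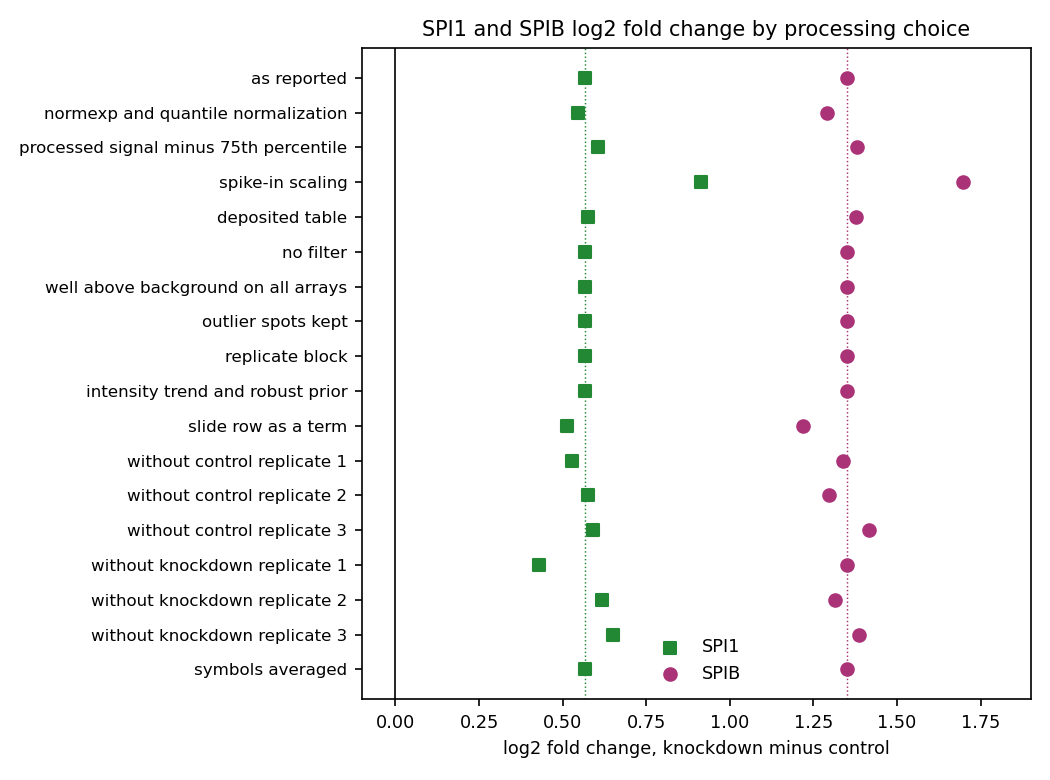
Log2 fold change of SPI1 (squares) and SPIB (circles), knockdown minus control (horizontal axis), as reported and under 17 alternatives in processing (vertical axis), with dotted lines at the reported values 0.57 and 1.35. All points lie above 0, and spike-in scaling gives the highest value of each gene.

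The lncRNA lnc-SPI1-1, named by the study's annotation for its neighbour SPI1, was covered by 3 custom probes. None was retained. Probes CUST_7515_PI427704219 and CUST_19845_PI427704219 were not well above background on any array, with values from 4.95 to 5.43 and from 4.72 to 5.18. CUST_15429_PI427704219 was above background on control replicate 3 alone (6.98) and lay between 4.91 and 5.27 on the other 5 arrays.

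Next, the genes with the most similar profile over the 6 arrays were determined, as the root mean square (RMS) difference of values centred on their mean. For SPIB the nearest genes were CCM2L (RMS 0.12), BLK (0.13), CAPG (0.15), GAS7 (0.15) and CYBB (0.16), with log2 fold changes of 1.29, 1.15, 1.19, 1.17 and 1.12. BLK encodes a SRC family kinase of the B-cell receptor pathway, CAPG an actin-capping protein and CYBB the catalytic subunit of the phagocyte NADPH oxidase. For SPI1 they were ANAPC13 (0.06), XYLT1 (0.06), KCNJ16 (0.07), TSPAN3 (0.07) and CPAMD8 (0.08), with log2 fold changes from 0.46 to 0.51. These 5 were highest on knockdown replicate 1, as was SPI1, which follows from choosing them by likeness to its profile. No gene was among the nearest 5 of both members.

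**Figure D3:**
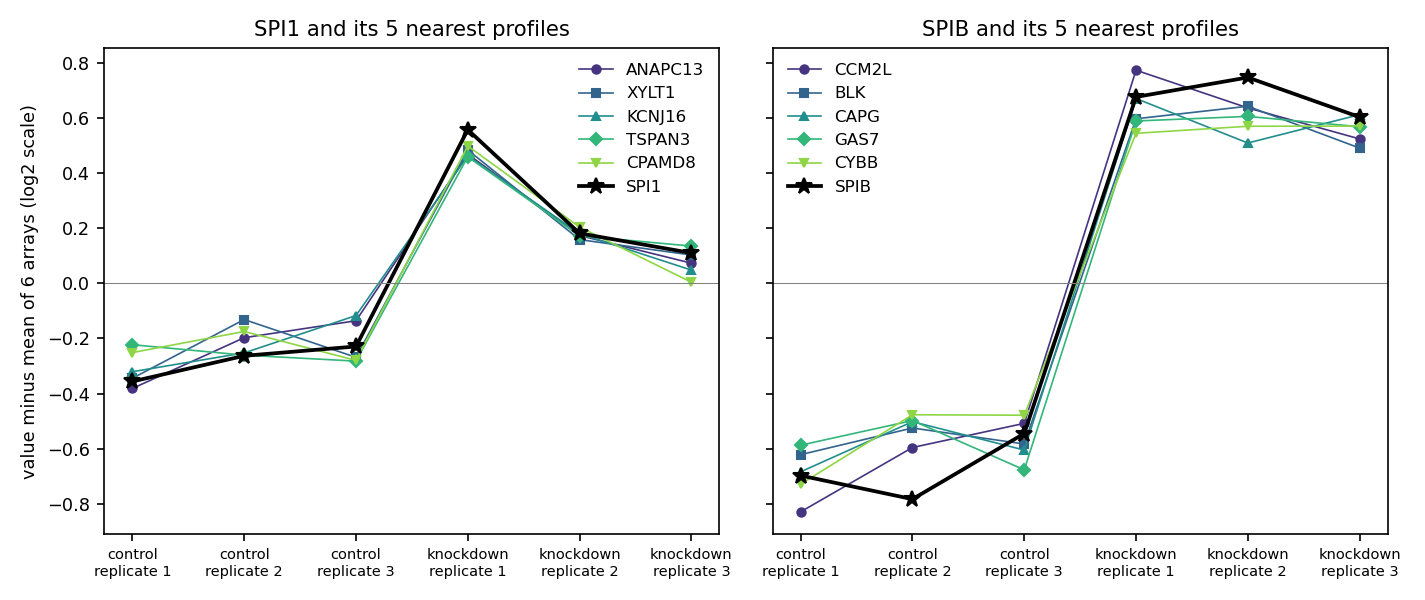
Normalized values minus the mean of the 6 arrays (vertical axis, log2 scale) on each array (horizontal axis) for SPI1 and SPIB in black and the 5 genes with the nearest profile of each in color. SPIB and its neighbours form a low control and a high knockdown level, while SPI1 and its neighbours peak on knockdown replicate 1, a likeness that the choice of the neighbours fixes.

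To describe the surroundings of the family, 5 lists of known partners and targets were examined, with SPI1, SPIB and SPIC left out. Together they held 84 genes, of which 69 had a retained probe, and 5 genes stood in more than 1 list. Of their 99 retained probes 11 were called (11.1%, against 1.72% of all retained probes), 2 higher and 9 lower, and they belonged to 10 genes. With the replicate number as a block term 20 probes were called, against 3.73% of all retained probes. The lists were drawn up with earlier results of these data known, so these shares are a description and do not show enrichment. No set test was run.

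Among 20 partners and regulators of the SPI factors, 2 of 27 retained probes were called, both lower, the median log2 fold change was -0.07, and 40.7% of probes had a positive value. GATA2, a stem and mast cell factor of a family known to antagonise PU.1, measured 6.62, 6.45 and 6.92 in control and 5.09, 5.19 and 4.54 in knockdown. No knockdown value of GATA2 was well above background, so its decrease is given against a floor, the lowest value well above background on each knockdown array. Against that floor the decrease of GATA2 was at least 2.55-fold on this scale (limma adjusted p = 0.00497 on the measured values). The floor is not a strict detection limit: CD3E at 5.78 and 5.81 on knockdown replicates 2 and 3 was not well above background. JUN, a known coactivator partner of PU.1, fell from 7.52, 7.52 and 7.02 to 5.64, 5.88 and 5.96 (log2 fold change -1.53, SE 0.16, limma adjusted p = 0.00356), and 2 of its 3 knockdown values were well above background. Sizes of these dim genes depended on the scaling: with normexp and quantile normalization JUN had -0.98 and GATA2 -0.91, and with the 75th percentile scaling they had -2.41 and -4.22. IRF4 had 0.38 (limma adjusted p = 0.567; with the replicate block 0.0735), and IRF8 had -0.23 (limma adjusted p = 0.703), with 0.12 under spike-in scaling. The 5 probes of RUNX1 ran from -0.26 to 0.03 with no call. According to the study the fusion contains nearly all of RUNX1, so these probes may read fusion and normal transcripts together. CEBPA and GATA1, other partners of PU.1, were not retained.

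Among 20 B-lineage target genes, 19 were retained with 28 probes, of which 75% had a positive log2 fold change, against 49.5% of all retained probes. The median was 0.15, and 1 probe was called higher and 1 lower. BLK rose from 11.15, 11.24 and 11.19 to 12.36, 12.41 and 12.26, so that the gap between groups was far larger than the spread within them (log2 fold change 1.15, SE 0.10, limma adjusted p = 0.00112). BANK1, a B-cell scaffold protein that associates with BLK-type kinases, fell by 0.75 on the log2 scale (SE 0.11, limma adjusted p = 0.0168) and was well above background on 3 control arrays and 1 knockdown array, so that the size is uncertain: it was -0.40 with normexp or spike-in scaling and -1.90 with the 75th percentile scaling. Its call was lost without control replicate 1 (adjusted p = 0.0572), 2 (0.0646) or 3 (0.076) or knockdown replicate 2 (0.086) or 3 (0.0801), all by limma, as with normexp, spike-in scaling, no filter or the slide row as a term. CD22, an inhibitory co-receptor of the B-cell receptor, had 0.67 (limma adjusted p = 0.053), and was called by limma in 6 of 17 alternatives: the replicate block (0.026), normexp (0.0364), spike-in scaling (0.00382), the filter on all arrays (0.0486), an intensity trend (0.0334) and without control replicate 1 (0.0193). CD79B, a signalling chain of the receptor, had 0.55 (limma adjusted p = 0.167; with the block 0.0378 and with spike-in scaling 0.0169), and CD72 had 0.43 (limma adjusted p = 0.373; with the block 0.049). All 3 were higher in knockdown in 3 of 3 pairs. CD79A, the partner chain of CD79B, had 0.14, the kinase BTK 0.18 and 0.29 on both of its probes, and IL7R, which encodes the interleukin 7 receptor chain, -0.10, with no call (limma adjusted p from 0.353 to 0.816). The block called 5 probes of this list, 4 higher and 1 lower.

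Among 23 myeloid target genes, 17 were retained with 23 probes, of which 65.2% had a positive log2 fold change, and the median was 0.10. CYBB rose from 10.12, 10.37 and 10.37 to 11.40, 11.42 and 11.42 (log2 fold change 1.12, SE 0.11, limma adjusted p = 0.002). MPO, the myeloperoxidase of neutrophil granules, went the other way, from 14.02, 13.98 and 13.87 to 12.30, 11.68 and 11.81 (-2.02, SE 0.16, limma adjusted p = 0.00106). CSF3R, the G-CSF receptor, was lower as well, from 11.56, 10.85 and 10.81 to 10.09, 9.20 and 9.18 (-1.58, SE 0.29, limma adjusted p = 0.0384; with the block 0.00134). For CSF3R the call was lost without control replicate 1 (adjusted p = 0.0863), 2 (0.105) or 3 (0.0785) or knockdown replicate 2 (0.158) or 3 (0.169), all by limma, as with the 75th percentile scaling, no filter, an intensity trend or the slide row as a term. CSF1R, the M-CSF receptor and a classical PU.1 target, had -0.06, and ITGAM, an integrin chain of myeloid cells, had 0.07, neither called (limma adjusted p = 0.905 and 0.933). Both values changed sign under some alternatives. The replicate block called 8 probes of this list, 4 higher and 4 lower, against 3 without it. Among those added by the block were FES and 2 of 4 NCF1 probes as higher and 1 of 3 MSR1 probes as lower. NCF1 has near-identical pseudogenes, so its probes are uncertain.

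Genes tied to SPIC in iron recycling and to SPIB in plasmacytoid dendritic cells were examined last. In the iron list 7 of 10 genes were retained with 11 probes, 27.3% of them positive, the median was -0.23, and 1 probe was called: CD68, a macrophage lysosomal protein, was lower by limma (-0.58, SE 0.10, adjusted p = 0.0282). With normexp CD68 had -0.39 and with spike-in scaling -0.24. The call of CD68 was lost without control replicate 1 (adjusted p = 0.0915), 2 (0.132) or 3 (0.111) or knockdown replicate 2 (0.118) or 3 (0.11), all by limma, as with normexp, spike-in scaling, no filter or the slide row as a term. HMOX1, heme oxygenase, had -0.34 (limma adjusted p = 0.414), and the iron exporter SLC40A1 was not above background on any array, as was SPIC. In the dendritic cell list 13 of 16 genes were retained with 19 probes, 42.1% of them positive, the median was -0.11, and 3 probes of 2 genes were called, all lower. TCF4, the E protein that with SPIB directs this lineage, fell from 13.94, 14.07 and 14.07 to 13.18, 13.05 and 13.07 (-0.93, SE 0.10, limma adjusted p = 0.0034), and its call was lost under spike-in scaling (-0.58, adjusted p = 0.173). NRP1, a surface marker of these cells, was lower on both probes (-1.74 and -1.37, limma adjusted p = 0.00033 and 0.001). IRF7, the interferon regulator, had 0.12 (limma adjusted p = 0.894), whereas CLEC4C and RUNX2 were not retained. With the replicate block IL3RA, the interleukin 3 receptor chain that marks these cells, was called lower too (-0.56, limma adjusted p = 0.0346, against 0.337 without the block).

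**Figure D4:**
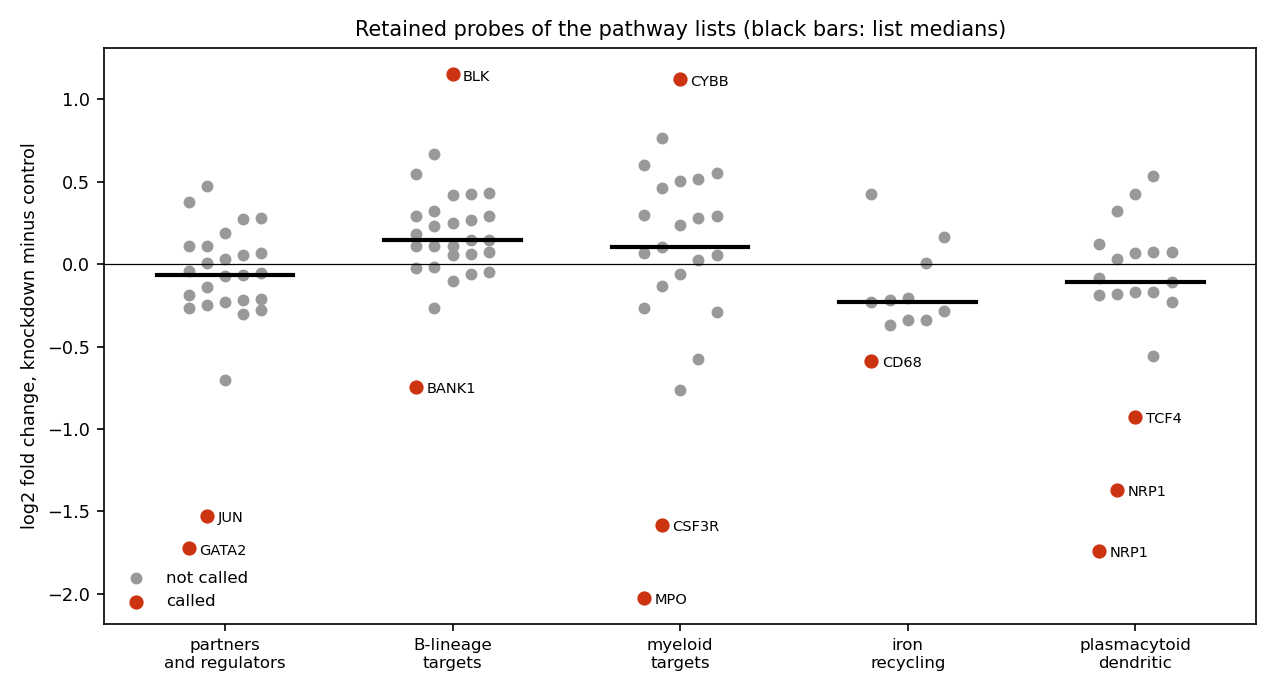
Log2 fold change, knockdown minus control (vertical axis), of each retained probe in the 5 lists (horizontal axis), with called probes in red and labelled and the list median as a black bar. BLK (1.15) and CYBB (1.12) are the called probes above 0, and 9 called probes lie below.

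**Figure D5:**
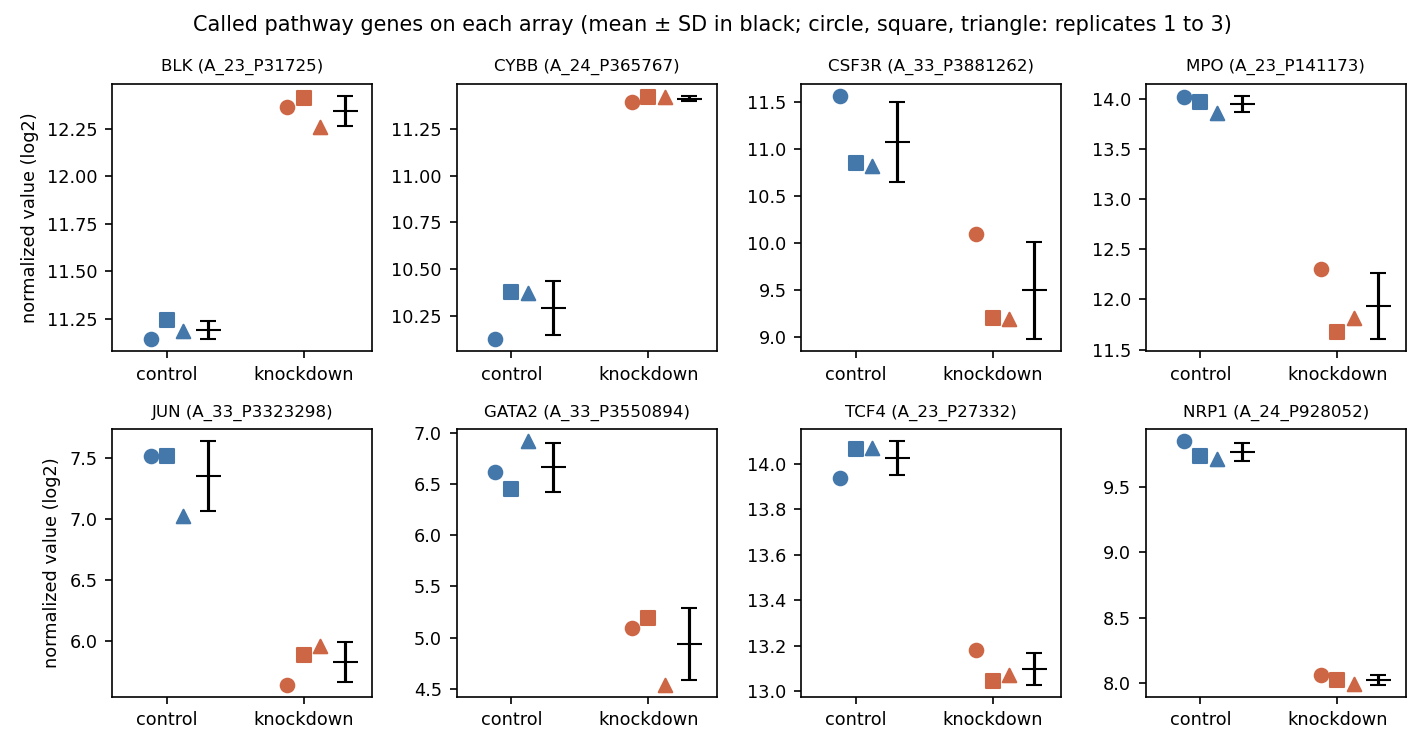
Normalized log2 values (vertical axes, each with its own range) of 8 called genes on the 3 control and 3 knockdown arrays, with markers for replicates 1 to 3 and group mean ± SD in black. No gene shows overlap between the groups, a separation that choosing called genes makes likely, and no knockdown value of GATA2 was well above background. The called genes BANK1 and CD68 are not shown.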

How the data were processed

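RNA of each sample was hybridised to its own array with Cy3 as the only dye. Spot intensities come from Agilent Feature Extraction 10.7.1.1, per the file headers. Deposited files give raw and processed intensities and other values, namely 0 or 1 flags, not normalized between arrays. The authors also deposited normalized log2 values of 27869 probes (VSN and background subtraction, per the study's methods).

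Here the VSN model (affine calibration per array, inverse hyperbolic sine, 0.9 quantile kept) was written anew in R 4.3.3 and fitted to raw median intensities. It understates changes of dim probes. Outlier spots were left out, spots of a probe averaged, and 107 probes with a missing value dropped. Probes over 1.1 times the normalized 0.95 quantile of 308 negative control spots on 2 of 3 arrays of a group were retained. Groups were compared with limma 3.58.1 (two-sided, Benjamini-Hochberg over all retained probes, without a block). Same-numbered arrays deviated together (r = 0.43, 0.29 and 0.20 across probes), so the numbers pair the samples, and blocked values stand where they change a call. In simulated data of this comparison (27445 probes, 200 changed), 86% of changed probes were called and 4.44% of calls were unchanged probes. The simulation drew independent noise for each array and changed only brighter probes, by 2-fold or more. Its shares therefore do not cover dim genes, smaller changes or the shared deviation of same-numbered arrays. The number of arrays limits precision. Accessions were matched to a RefSeq gene table (GRCh38.p14), which named 75.4% of catalogue probes. A gene with several probes is given by the brightest retained one. Named were all member probes, called list genes, 16 list genes whether called or not and the 5 nearest profiles of each retained member. Alternatives covered normalization, filter, outlier spots, replicate block, intensity trend, slide row, each array left out and symbols averaged. Members and lists were chosen with earlier results of these data known.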

Additional observations from a re-analysis of the deposited data

How the results depend on the processing

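SPIB and SPI1 kept their direction under the 12 alternatives that could move it. The other 5 (both filter changes, replicate block, intensity trend, symbols averaged) leave the fold of a gene with a single probe as it is. SPIB moved to 1.70 and SPI1 to 0.91 under spike-in scaling, and SPIB to 1.22 with the slide row as a term. Leaving out 1 array at a time gave 1.30 to 1.41 for SPIB and 0.43 to 0.65 for SPI1. The count of 471 called probes became 851 under spike-in scaling (148 lower, 703 higher), 223 with no filter, 239 with the slide row, 1023 with the replicate block and 190 to 561 without 1 array. Calls in the lists were as follows. Partners and regulators had 1 call where all arrays had to be well above background, a filter that GATA2 and JUN did not pass, and 2 or 3 calls otherwise. B-lineage targets had 5 calls with the replicate block, 1 with no filter, 1 with the slide row and 1 to 2 without 1 array. Myeloid targets had 9 under spike-in scaling, 8 with the block and 2 to 5 without 1 array. The iron list had 0 with normexp and quantile normalization, spike-in scaling, no filter or the slide row, and 0 to 1 without 1 array. Values that changed sign were not called in either direction. Under spike-in scaling these were IRF8 (0.12), RUNX1 (0.14), IL7R (0.25), CSF1R (0.29) and HMOX1 (0.0099). CSF1R was also 0.029 with normexp and quantile normalization and 0.027 in the deposited table. Without 1 array, CSF1R ran from -0.20 to 0.073, CD79A from -0.069 to 0.29, ITGAM from -0.17 to 0.25 and IRF7 from -0.20 to 0.33. With 1 array left out, other values without a call moved by over 1.5 times but kept their sign in these fits. IRF4 ran from 0.16 to 0.58, IRF8 from -0.49 to -0.069 and HMOX1 from -0.46 to -0.20. RUNX1 ran from -0.27 to -0.14, BTK from 0.087 to 0.31 and IL7R from -0.22 to -0.0066. The cause was not tested. BLK, CYBB, MPO and NRP1 kept their calls under all 17 alternatives, and GATA2 and JUN under the 16 that tested them. The replicate block ended none of the 11 list calls and added 9. CD72, FES, NCF1, MSR1 and IL3RA were named after their values were seen, for these added calls, as were CEBPA, GATA1, CLEC4C and RUNX2, for not being retained. SPIC was below background on every array, so no fold is given for it under any alternative.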
